A study of Sus scrofa with 20 samples.

Results

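The backfat transcriptome was described from the 5 backfat RNA-seq libraries of the study, chosen by tissue and assay from 20 samples in all. The libraries were made from subcutaneous backfat of 5 Nanchukmacdon boars labelled WT, for which the labels also give an age of 22 months and the disease state Normal, with no treatment named. RNA was extracted from whole tissue, enriched for poly(A) mRNA and sequenced in paired-end reads. Libraries are named by the boar number of their column: backfat 65, 67, 69, 71 and 72. They form a single group, so levels and the spread between libraries were described and no difference between conditions was tested. With a single library per boar, differences between animals cannot be told apart from those of sampling or preparation.

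White adipose tissue stores fatty acids as triacylglycerol in large lipid droplets inside adipocytes. Adipocytes take up fatty acids that lipoprotein lipase frees from lipoproteins, make others from citrate by de novo lipogenesis, and release them by lipolysis. In pigs fat is the main site of lipogenesis. Each adipocyte sits in a basement membrane and a collagen network that is made largely by fibroblasts, beside vessels, nerves and immune cells. All values come from bulk tissue, in which fewer cells of a type and less RNA per cell cannot be told apart.

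Between 45157114 and 61772737 read pairs were counted per library, and 24945 of 31907 genes had at least 1 count. Transcript abundance was computed as TPM, the length-corrected share of a transcript in the mRNA pool, from the raw counts and the exon length of each gene so that levels can be compared between genes. TPM values are relative to the nuclear genes of a library unless the mitochondrial genome is named. Each pair of libraries differed by more than counting noise (chi-square per gene from 69.6 to 276.5), so none is a second deposit of another. That they come from 5 boars rests on the boar numbers of the columns. Backfat 69 differed from the others by its high genes of liver and plasma proteins and was the lowest library for most heat shock genes. Each value is given by library so that this can be seen.

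The markers given for the tissue were all high. FABP4 (ENSSSCG00000040681, chromosome 4, 55096400 to 55101209 of Sscrofa11.1), the fatty acid binding protein of adipocytes, had 12560, 15320, 12410, 12370 and 14210 TPM in backfat 65, 67, 69, 71 and 72. PLIN1 (chromosome 7, 55237517 to 55250797), which coats the lipid droplet, had 1671, 1557, 1320, 1048 and 827 TPM in the same order. Both were present in every library at a level passed by few genes, and FABP4 varied by only 1.24-fold between the highest and the lowest. LIPE (chromosome 6, 49543671 to 49560126), the hormone-sensitive lipase, had 856, 969, 382, 396 and 231 TPM. COL3A1 (chromosome 15, 93556914 to 93595678), the chain of type III collagen, had 21120, 22770, 15520, 19780 and 25080 TPM. LUM (chromosome 5, 91748871 to 91756381), which encodes lumican, a proteoglycan of collagen fibrils, had 642, 808, 806, 1208 and 1197 TPM. LIPE was highest in backfat 65 and 67, whereas LUM was highest in backfat 71 and 72.

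A small number of genes filled much of the mRNA pool. On the mean of the 5 libraries, 275 genes held 50% of the nuclear TPM and 4499 genes held 90%. In single libraries 50% was reached with 327, 267, 236, 266 and 241 genes in backfat 65, 67, 69, 71 and 72. The top 10 genes held 13.03%, the top 30 held 22.3% and the top 100 held 36.9%, and 139 genes had a mean of at least 1000 TPM. Genes without a symbol in the reference held 15.7% ± 1.06 (SD, n = 5) and made up 7 of the top 30, which are counted and not named. The 275 genes were short, with a median exon length of 1873 bases against 4076 bases for the 13750 genes that passed the filter on low values (a mean count of at least 10 and a mean TPM of at least 1). By CPM, the share of counts without correction for length, 14 of the top 30 by TPM were again among the top 30.

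Matrix genes led the pool. COL3A1 was first with 20850 ± 3577 TPM (SD, n = 5), and COL1A1, the alpha 1 chain of type I collagen, had 15860 ± 4962 TPM. SPARC, a collagen-binding glycoprotein, had 17540, 15660, 13830, 17180 and 18040 TPM in backfat 65, 67, 69, 71 and 72, and was steady among them. COL1A2, the alpha 2 chain, had 11950, 8166, 7669, 9538 and 13190 TPM. COL4A1 of the basement membrane had 4650 ± 825 TPM, and COL6A2 and COL6A1, chains of the microfibrillar type VI collagen, had 2746 ± 666 and 2486 ± 237 TPM. Other abundant genes stood beside them. ADIPOQ, which encodes the hormone adiponectin, had 5615, 5627, 4030, 2950 and 2352 TPM, and APOE had 4127 ± 880 TPM. LPL, the lipoprotein lipase itself, had 2844 ± 482 TPM. SAL1, a lipocalin, had 2441, 1075, 3194, 6543 and 5689 TPM, with a 6.09-fold range that was the widest among the named genes of the top 30.

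Ribosomal protein genes made up the largest group of the top 30, led by RPLP1 with 18130 ± 3776 TPM and RPLP2 with 9928 ± 1542 TPM, both acidic proteins of the ribosomal stalk. RPLP1 was lowest in backfat 65, at 13570 TPM, and highest in backfat 67, at 23700 TPM. RPS12, RPLP0, RPS18, RPS7, RPL10 and RPL23 followed with means from 4122 to 5936 TPM. Ribosomal protein genes have near-identical processed copies in the genome, and reads that map to several places were not counted, so their levels are less certain than those of single-copy genes. The remaining named genes of the top 30 were TMSB10 and TMSB4X, which bind actin, TPT1, UBB, which encodes ubiquitin, and LGALS1, a galectin.

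**Figure D1:**
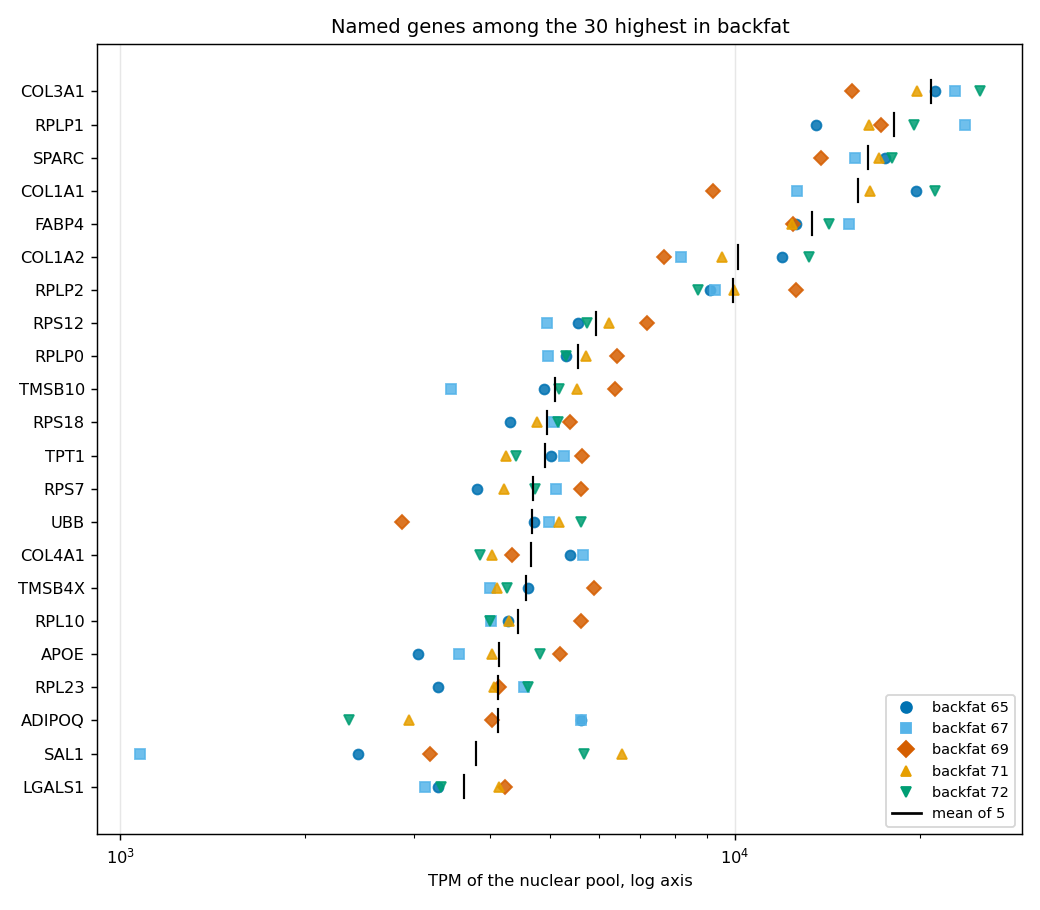
TPM of the nuclear pool (horizontal, log axis) for 22 genes with a symbol among the 30 highest, with 1 point per library and a bar at the mean of 5. COL3A1 is first at a mean of 20850 TPM, and SAL1 is the most scattered, from 1075 TPM in backfat 67 to 6543 TPM in backfat 71.

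The mitochondrial genome carries 13 protein-coding genes, which encode core subunits of the respiratory chain and of ATP synthase. When they were kept in the pool they held 22.2%, 20.8%, 37.0%, 31.8% and 32.0% of all TPM in backfat 65, 67, 69, 71 and 72, a mean of 28.8% ± 6.96 (SD, n = 5). Backfat 65 and 67 were lowest and backfat 69 highest, and the share was 1.78 times as large in the highest as in the lowest. Because these genes are short, they took only 11.02% ± 3.66 of the counts. With them in the pool, 71 genes in place of 275 held 50% of the TPM. In the pool with mitochondrial genes ATP6 (55730 ± 13680 TPM), COX3 (54120 ± 11780 TPM), COX1 (46390 ± 12510 TPM) and COX2 (32580 ± 7318 TPM) lay above every nuclear gene. CYTB followed with 17910 ± 4388 TPM. Nuclear genes have lower TPM in this pool than in the nuclear pool used above, so the values of CYTB and ATP8 cannot be set against those given there. ATP8 (15880 ± 4934 TPM) overlaps ATP6, and reads of the overlap were not counted. ND6 (12390 ± 5075 TPM) lies on the other strand, and the counting did not use strand. ND1, ND2, ND3, ND4 and ND5, subunits of complex I, had means from 6845 to 11060 TPM, and ND4L had 5847 ± 1108 TPM.

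To describe functions, 42 lists of nuclear genes were summed. The lists hold 587 genes, which together held 35.2% ± 1.11 (SD, n = 5) of the nuclear TPM. The 45 cytosolic ribosomal protein genes held 11.6% ± 1.17, the 9 fibrillar collagen genes 4.88% ± 1.04 and the 27 elastic fibre and matrix glycoprotein genes 2.60% ± 0.201. The other collagens added 1.32% ± 0.172, and the enzymes and chaperones of collagen processing, such as PCOLCE (2454 ± 402 TPM) and SERPINH1 (2285 ± 498 TPM), added 0.675% ± 0.102. Small and large proteoglycans, led by DCN, which encodes decorin (2473 ± 307 TPM), and BGN, which encodes biglycan (1223 ± 140 TPM), held 0.605% ± 0.0606. The matrix lists thus outweighed those of fat storage.

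Of the lists of fat metabolism, fatty acid uptake and binding was the largest, with 1.95% ± 0.122 of the pool, most of it FABP4. Lipogenesis held 0.828% ± 0.566, adipokines 0.701% ± 0.149, the lipid droplet coat 0.349% ± 0.0446, triacylglycerol synthesis 0.303% ± 0.0452 and lipolysis 0.270% ± 0.0579. CIDEC, which fuses lipid droplets, had 1525 ± 392 TPM, and DGAT2, which catalyses the last step of triacylglycerol synthesis, had 1453 ± 341 TPM. PNPLA2, the lipase that starts lipolysis, had 1055 ± 186 TPM. CFD, which encodes adipsin, had 1641 ± 291 TPM. Nuclear genes of oxidative phosphorylation held 1.53% ± 0.402. The 7 matched thermogenic genes held 0.0317% ± 0.00947. Most of this was UCP2 and UCP3, uncoupling proteins that are not confined to brown fat, with means of 194 and 113 TPM. PPARGC1B, DIO2 and PRDM16 had 6.45, 1.84 and 1.45 TPM, and PPARGC1A and ELOVL3 did not pass the filter, with 0.171 and 0.040 TPM.

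**Figure D2:**
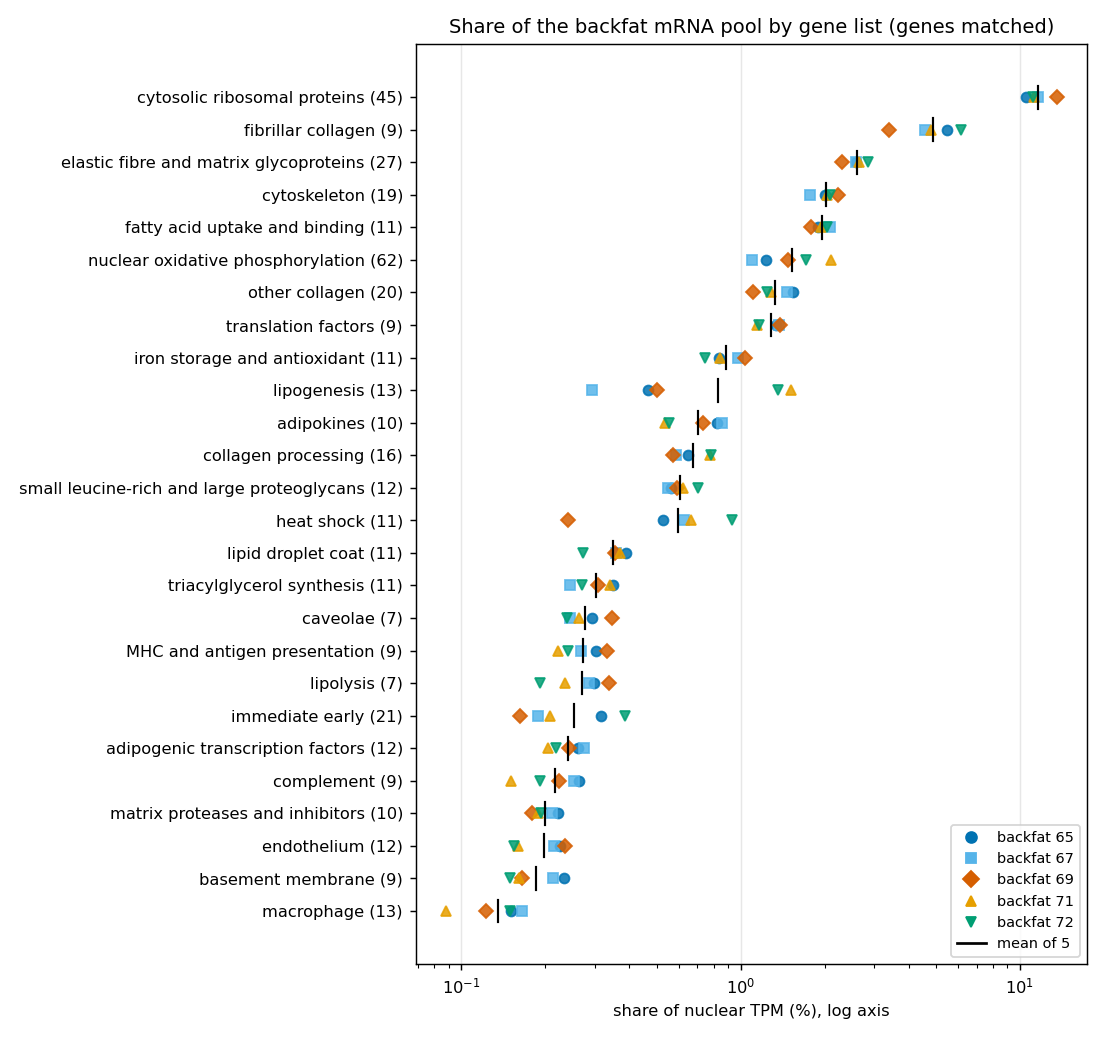
Share of nuclear TPM in percent (horizontal, log axis) for the 26 gene lists with the largest shares, with the number of genes matched in brackets, 1 point per library and a bar at the mean of 5. Ribosomal proteins and fibrillar collagens lead with 11.6% and 4.88%, and lipogenesis and heat shock are the most scattered of the lists above 0.5%.

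Genes of other cell types were measured in every library at lower levels. Endothelial genes held 0.198% ± 0.0379 of the nuclear TPM, led by PLVAP (483 ± 122 TPM) and PECAM1 (289 ± 75.5 TPM). Macrophage genes held 0.135% ± 0.0302, led by the complement genes C1QC (423 ± 102 TPM) and C1QB (233 ± 61.99 TPM), with LYZ at 0 in all 5 libraries. Smooth muscle and pericyte genes held 0.129% ± 0.0137, and red cell genes 0.112% ± 0.0712. Lymphocyte, stromal progenitor, skeletal muscle, Schwann cell and mast cell lists held less than these. Of the 7 matched skin genes only KRT10 passed the filter on low values, with 13.5 ± 1.29 TPM, and KRT1 and TP63 were at or near 0. The 3 matched mesothelial genes were low, with KRT8 highest at 2.996 ± 1.93 TPM.

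The spread between libraries was measured for 13750 nuclear genes on the scale of log2 CPM after normalization by the trimmed mean of M-values (TMM). The SD between the 5 libraries was 0.30 for the median gene, 0.11 at the 5th percentile and 0.86 at the 95th percentile. Counting error alone gives a median SD of 0.045. The median biological coefficient of variation, the spread beyond counting error in edgeR's count model, was 0.243. The SD was above 1 for 422 genes, which are 3.07% of those measured. The steadiest named genes were EVL, an actin regulator, with an SD of 0.021, and PDRG1 with an SD of 0.022. They were followed by ZNF268, RBM22, ZNF330, SRPK2, SFSWAP, PIAS2 and VEZF1, all with an SD below 0.04, and RBM22, SRPK2 and SFSWAP act in RNA splicing. These low values depend on the TMM scaling. On log2(TPM + 0.1), which shifts the median gene by 0.17 in backfat 65 and -0.12 in backfat 72, the SD of ZNF268 was 0.13 and that of RBM22 0.10. Among abundant genes, VIM, which encodes vimentin, had 3312, 3525, 3307, 3006 and 2885 TPM and an SD of 0.092.

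**Figure D3:**
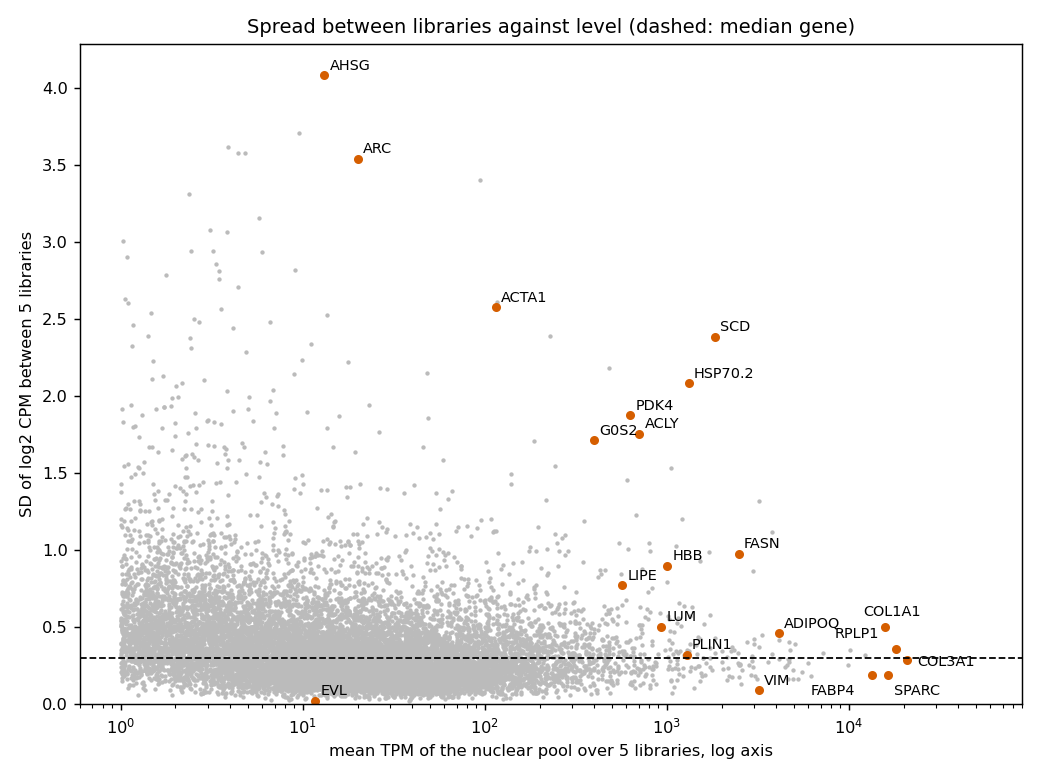
SD of log2 CPM between the 5 libraries (vertical) against mean nuclear TPM (horizontal, log axis) for the 13750 genes, with selected genes marked in orange and a dashed line at the median SD of 0.30. AHSG is the most variable gene of those marked, and SCD and HSP70.2 are variable at means above 1000 TPM.

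Of the lists with a mean share above 0.5%, lipogenesis differed most between libraries, with a coefficient of variation of 68.4%. The 13 lipogenesis genes held 0.466%, 0.294%, 0.501%, 1.52% and 1.36% of the nuclear TPM in backfat 65, 67, 69, 71 and 72. Backfat 71 and 72 were well above the others, and the highest library had 5.16 times the share of the lowest. SCD (chromosome 14, 111461560 to 111478033), the stearoyl-CoA desaturase that makes oleic acid, had 226, 133, 691, 3908 and 4194 TPM. It ranged over 31.6-fold, with an SD of 2.39 on the log2 scale. ACLY, which splits citrate into acetyl-CoA, had 224, 112, 275, 1645 and 1271 TPM. FASN (chromosome 12, 922405 to 937560), the fatty acid synthase, had 1766, 1171, 1215, 4540 and 3735 TPM. All 3 genes were lowest in backfat 67 and had their 2 highest values in backfat 71 and 72. ELOVL6, an elongase of fatty acids, had 333, 195, 404, 963 and 853 TPM. ME1, the malic enzyme that supplies NADPH, had 43.3, 46.4, 51.8, 324 and 232 TPM. ACACA, which commits acetyl-CoA to fatty acids, was the lowest of the list by level, with 33.3, 24.6, 33.5, 87.1 and 73.1 TPM, and was again highest in backfat 71 and 72. THRSP, a regulator of lipogenesis, had 529, 239, 1002, 1114 and 1127 TPM, so that backfat 69 lay closer to backfat 71 and 72 for this gene. PGD, which makes NADPH, had 655, 440, 616, 971 and 854 TPM, and SLC25A1, the citrate carrier of mitochondria, had 316, 201, 292, 744 and 552 TPM.

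On log2 CPM, all 13 lipogenesis genes were above their own mean in backfat 71 and in backfat 72, where 49.6% and 49.7% of all genes were. Backfat 71 was the highest library for 10 of the 13, against 16.5% of all genes, and backfat 67 the lowest for 11 of the 13, against 21.9%. The median deviation of the list from the gene means was -0.95 in backfat 67 and 1.04 in backfat 71 (log2). The remaining 3 were SCD and THRSP, which were slightly higher in backfat 72 than in backfat 71, and MID1IP1, an activator of acetyl-CoA carboxylase, with 45.5, 21.9, 93.4, 63.4 and 80.2 TPM, highest in backfat 69. The transcription factor genes did not all vary as much. SREBF1 had 134, 93.5, 99, 120 and 102 TPM, with an SD of 0.19 on log2 CPM. It was highest in backfat 65 by TPM. TPM scaling raises backfat 65 by 0.17 (log2) against TMM, so which library is highest for SREBF1 depends on the scaling. MLXIPL, which encodes the glucose-responsive factor ChREBP, had 165, 240, 96.0, 314 and 274 TPM and was highest in backfat 71 and 72.

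Genes of cholesterol synthesis and of nuclear oxidative phosphorylation were also high in backfat 71 and 72. The 20 cholesterol genes held 0.0955%, 0.0724%, 0.0813%, 0.175% and 0.166% of the nuclear TPM. All 20 were above their mean in backfat 71 and 18 in backfat 72, and backfat 67 was lowest for 14 of them, against 49.6%, 49.7% and 21.9% of all genes. IDI1, an isomerase of the pathway, had 115, 95.05, 173, 430 and 407 TPM. INSIG1, which holds the SREBP proteins in the endoplasmic reticulum, had 66.96, 39.2, 51.2, 110 and 117 TPM, and SREBF2, which encodes SREBP-2, had 38.3, 27.3, 34.5, 47.8 and 47.8 TPM. The 59 oxidative phosphorylation genes that passed the filter were above their mean in backfat 71 for 58 genes and in backfat 72 for 59, and backfat 71 was highest for 52, against 16.5% of all genes. COX8A and NDUFA4, subunits of complex IV, had 787, 638, 1224, 1398 and 1094 TPM and 673, 562, 932, 1322 and 1095 TPM. The mitochondrial genome did not share this order in full, since its share was highest in backfat 69.

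Backfat 67, the lowest library for most lipogenesis genes, was the highest for PDK4, PLIN2 and PLIN4. PDK4, a kinase that shuts pyruvate dehydrogenase, had 677, 2051, 66.8, 219 and 140 TPM. PLIN2 and PLIN4, coat proteins of the lipid droplet, had 38.9, 76.3, 26, 29.2 and 27.9 TPM and 295, 613, 247, 227 and 208 TPM. PDK4 was lowest in backfat 69, while PLIN2 and PLIN4 stood apart as high in backfat 67 by Dixon's gap (defined with the library-wide counts below), as 0.735% of all genes did. PCK1, an enzyme on the route from pyruvate to glycerol 3-phosphate in fat, had 318, 229, 204, 86.3 and 49.0 TPM. It was lower in backfat 71 and 72 than in the other 3, as were ADIPOQ, PLIN1 and PNPLA2. Other genes of lipid storage and release differed from this order. CIDEC had 1518, 1007, 1604, 2094 and 1403 TPM and MGLL, the monoacylglycerol lipase, had 376, 355, 408, 470 and 391 TPM, both highest in backfat 71. PNPLA3, a lipase related to PNPLA2, had 143, 66.4, 116, 257 and 184 TPM and was highest in backfat 71 and 72. LIPE, whose values are given above, was lowest in backfat 72. G0S2, an inhibitor of the lipase PNPLA2, went its own way with 215, 58.1, 1413, 167 and 128 TPM, highest in backfat 69.

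Of the adipogenic transcription factors, PPARG, the master regulator of fat cell formation, had 421, 238, 274, 276 and 368 TPM. CEBPA had 681, 304, 755, 353 and 415 TPM, highest in backfat 69 and lowest in backfat 67, whereas CEBPD had 557, 1148, 292, 489 and 490 TPM, highest in backfat 67 and lowest in backfat 69. LEP, which encodes leptin, had 114, 55.8, 102, 122 and 66.1 TPM. SLC2A4, the insulin-responsive glucose transporter, had 103, 79.7, 108, 184 and 165 TPM and was highest in backfat 71 and 72.

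Matrix genes differed less than lipogenesis. The 9 fibrillar collagen genes held 5.48%, 4.56%, 3.39%, 4.80% and 6.15% of the nuclear TPM, a 1.81-fold range, with backfat 72 highest and backfat 69 lowest. COL1A1 had 19700, 12630, 9201, 16590 and 21190 TPM, and its SD of 0.50 was larger than the 0.29 of COL3A1 and the 0.35 of COL1A2. On log2 CPM the list was above its mean for 9 of 9 genes in backfat 71 and 8 of 9 in backfat 72, against 49.6% and 49.7% of all genes. Backfat 69 was lowest for 6 of 9, against 23.6% of all genes. The place of backfat 65 depended on the scaling, with a median deviation of -0.071 by TMM and 0.103 on log2(TPM + 0.1). Set against the fibrillar collagens, the lipogenesis share was 8.49%, 6.46%, 14.8%, 31.6% and 22.1% of theirs in backfat 65, 67, 69, 71 and 72. The proportion was largest in backfat 71 and smallest in backfat 67, and matrix and lipogenesis were both high in backfat 72. Basement membrane genes went otherwise, with 0.233%, 0.212%, 0.165%, 0.161% and 0.150%, highest in backfat 65 and lowest in backfat 72. By TMM their median deviation was 0.174 in backfat 65 and 0.198 in backfat 67, so which of them is highest depends on the scaling.

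**Figure D4:**
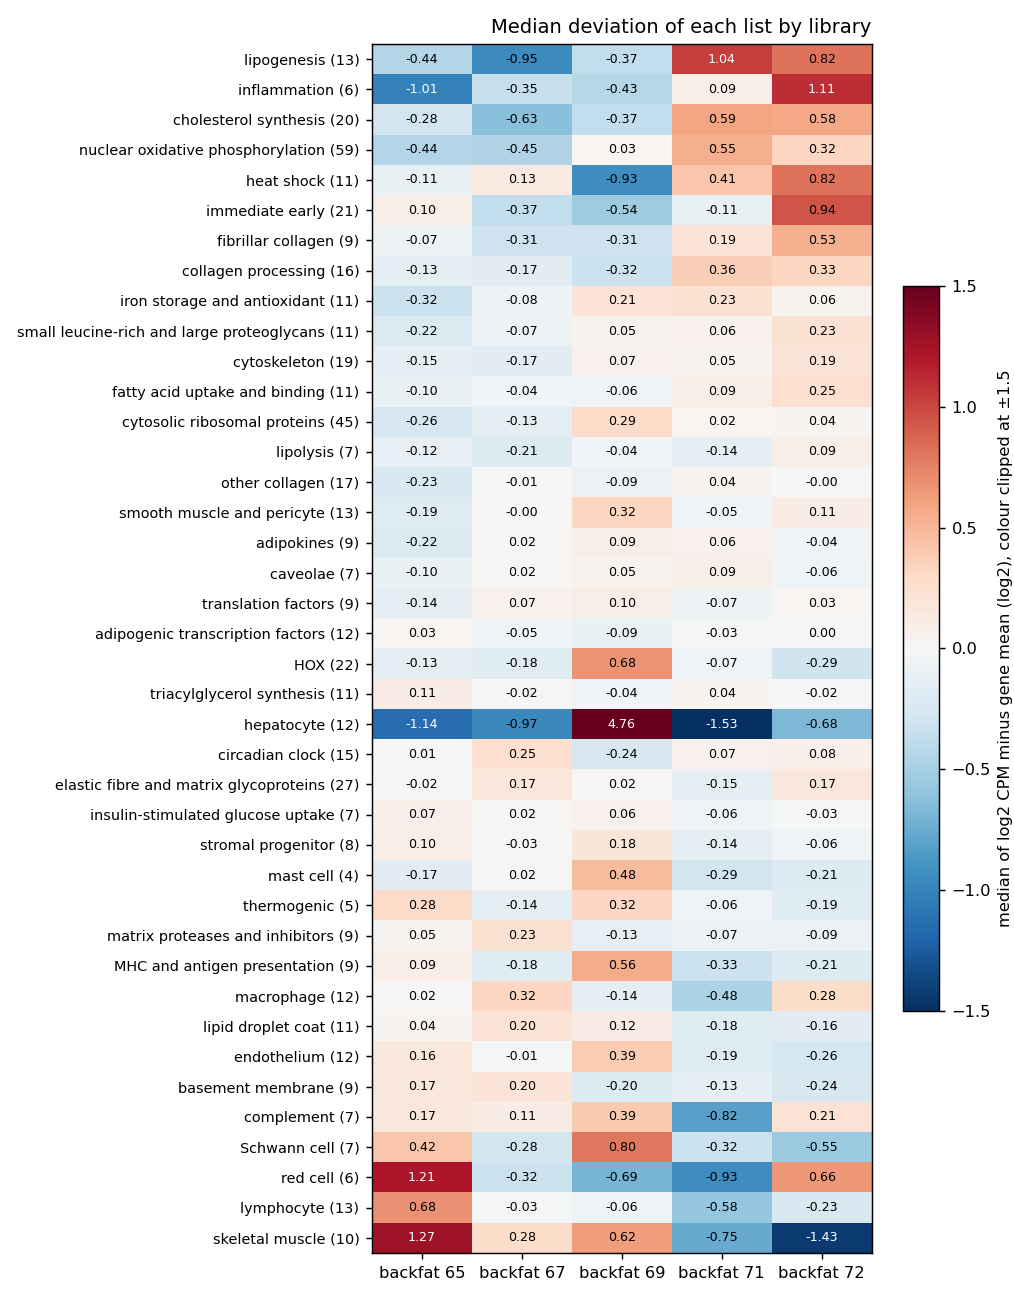
Median over the genes of each list of log2 CPM minus the mean of the gene, by library (columns), with the number of genes that passed the filter in brackets and the colour clipped at 1.5 in either direction. Lipogenesis is at 1.04 in backfat 71 and -0.95 in backfat 67, and skeletal muscle at 1.27 in backfat 65. The hepatocyte list is at 4.76 in backfat 69, through which alone several of its genes passed the filter.

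A library was said to stand apart for a gene when its gap to the nearest other library, divided by the range of all 5, passed Dixon's critical value of 0.71. This was so for 819 of 13750 genes, or 5.96%, where chance alone flags about 1 in 20 groups. Of the 819 genes 400 stood apart in backfat 69, 175 of them higher (1.27% of all genes) and 225 lower (1.64%), and backfat 71 had the fewest, 45 in all. The first principal component of the filtered genes held 39.6% of the variance, with backfat 69 at 56.8 and backfat 72 at -31.2 as its ends. The second held 31.4% and placed backfat 65 (30.7) and backfat 67 (36.7) against backfat 69 (-20.2), 71 (-22.5) and 72 (-24.7).

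Genes of plasma proteins that are made in the liver gave backfat 69 the largest differences of all. AHSG, which encodes fetuin-A, had 0.028, 0.17, 65.4, 0 and 0.17 TPM in backfat 65, 67, 69, 71 and 72. The count of 0 in backfat 71 allows up to 0.113 TPM (3 counts, counting error only). APOC3, an apolipoprotein, had 0, 0.061, 47.2, 0 and 0.18 TPM, and its counts of 0 allow up to 0.147 TPM in backfat 65 and 0.2 TPM in backfat 71. ALB, which encodes albumin, had 0.29, 0.29, 27.8, 0.099 and 0.19 TPM, and TF, which encodes transferrin, had 1.99, 1.69, 27.7, 1.71 and 1.63 TPM. Without backfat 69 the SD of TF on log2 CPM was 0.064 in place of 1.79. Of the 12 hepatocyte genes that passed the filter, backfat 69 was highest for all 12, against 24.4% of all genes. It stood apart as higher for 10, against 1.27% of all genes. Several of the 12, such as AHSG and APOC3, passed the TPM minimum only through backfat 69, so these counts follow in part from the filter. FGG (11.6 TPM), HRG (22.1 TPM) and SERPINA5 (15.5 TPM), which also encode plasma proteins and led the first component, were at most 0.21 TPM in each other library. The 15 matched hepatocyte genes held 0.0738%, 0.0736%, 0.176%, 0.0559% and 0.0522% of the nuclear TPM, most of it APOA1, which had 1504 TPM in backfat 69 and 517 to 733 TPM in the others. The part of liver or plasma RNA in other values of backfat 69 was not tested.

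Backfat 69 was also the lowest library for genes of the heat shock response, whose products refold damaged proteins. HSP70.2, an inducible HSP70, had 1559, 1276, 64.9, 1201 and 2501 TPM, and stood apart as low in backfat 69. HSPH1, a co-chaperone of HSP70, had 194, 792, 23.9, 514 and 890 TPM, and DNAJB1, another, had 792, 334, 89.8, 624 and 1195 TPM. Of the 11 heat shock genes that passed the filter, backfat 69 was lowest for 9 and backfat 72 highest for 9, against 23.6% and 17.0% of all genes. None of these 11, which do not include HSP70.2, stood apart in a library. The list held 0.525%, 0.627%, 0.240%, 0.667% and 0.931% of the nuclear TPM. HSPB6, a small heat shock protein of muscle and fat, was highest in backfat 69 at 592 TPM, against 352 to 462 TPM elsewhere. HSP70 genes have near-identical copies, so the level of HSP70.2 is uncertain.

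Immediate early and inflammatory genes, which are switched on within minutes to hours of a stimulus, were highest in backfat 72. FOSB, an AP-1 subunit, had 35.9, 22.8, 10.8, 28.4 and 198 TPM, and ARC had 0.22, 12.9, 0.37, 8.67 and 78.1 TPM. Of 21 immediate early genes, backfat 72 was above the mean for 21 and highest for 18, against 49.7% and 17.0% of all genes. CCL2, a chemokine that draws monocytes, had 121, 149, 105, 197 and 532 TPM, and backfat 72 was highest for all 6 inflammatory genes that passed the filter, against the same 17.0%. FOS and EGR1, in contrast, were highest in backfat 65, at 328 and 344 TPM.

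Backfat 65 held the most RNA of skeletal muscle, lymphocytes and, with backfat 72, red cells. ACTA1, the actin of skeletal muscle, had 372, 81.8, 103, 15.6 and 3.05 TPM, and CKM, the muscle creatine kinase, had 64.0, 19.0, 25.9, 3.98 and 2.01 TPM. Backfat 65 was highest for 9 of the 10 muscle genes that passed the filter and backfat 72 lowest for 8, against 20.4% and 20.2% of all genes, and the list held from 0.00371% to 0.0573% of the nuclear TPM. HBB, which encodes beta globin, had 1380, 649, 588, 439 and 1958 TPM. SLC4A1, the anion exchanger of red cells, had 20.8, 0.53, 0.35, 0.12 and 0.22 TPM and stood apart as high in backfat 65, as 0.567% of all genes did. CD3E, a chain of the T cell receptor complex, had 11.5, 4.47, 3.96, 2.38 and 2.96 TPM. Backfat 65 was highest for 11 of 13 lymphocyte genes, against 20.4% of all genes. Of the marker lists of other cells none held more than 0.235% of the pool in any library, and their part in other differences was not tested.

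**Figure D5:**
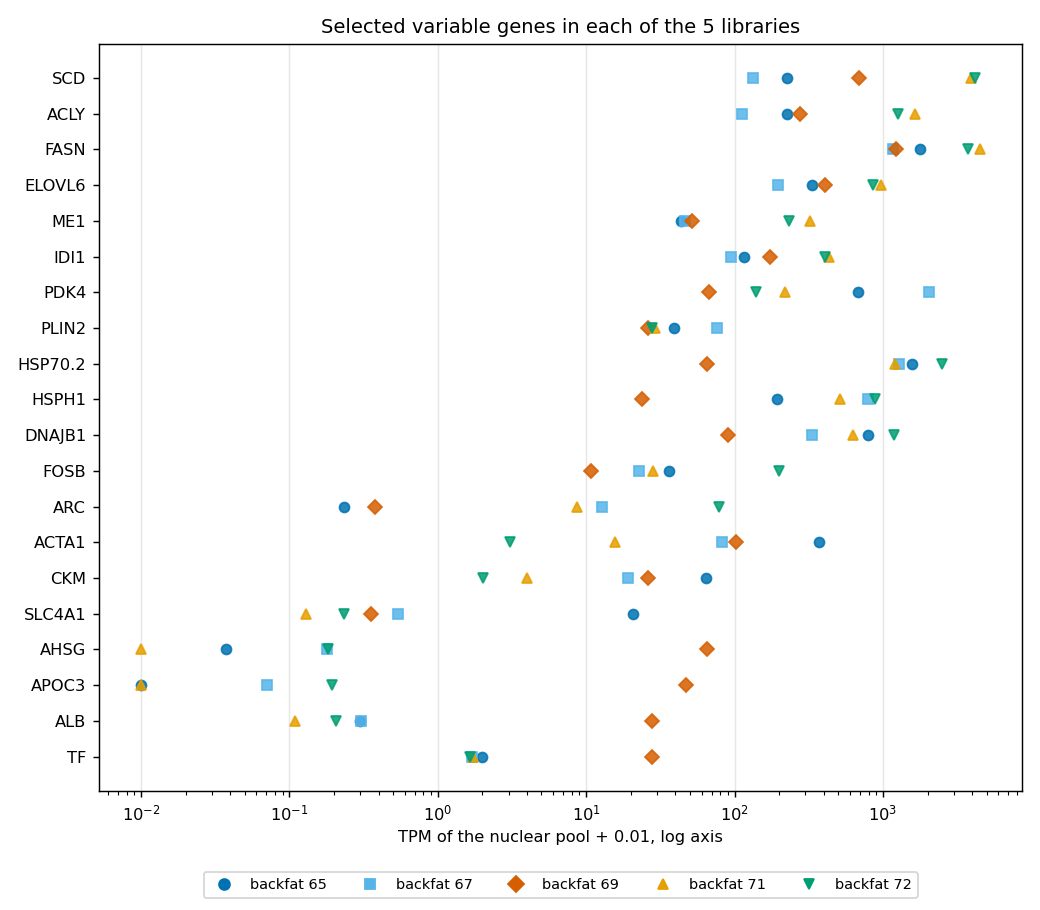
TPM of the nuclear pool plus 0.01 (horizontal, log axis) for 20 variable genes, with 1 point per library. Lipogenesis genes (SCD to ME1) have backfat 71 and 72 at the right, heat shock genes have backfat 69 at the left, ACTA1 and CKM have backfat 65 at the right, and AHSG, APOC3, ALB and TF have backfat 69 at the right.

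Genes of the HOX clusters, which keep the position of a cell along the body axis, also differed between libraries. HOXB3 was the highest of them, with 61.1, 82.1, 50.3, 53.4 and 50.1 TPM. HOXA5 had 34.0, 106, 40.9, 15.2 and 7.01 TPM, highest in backfat 67 and lowest in backfat 72. HOXB7 had 11.9, 15.1, 44.4, 11.2 and 9.42 TPM, and HOXC9 had 0.92, 2.80, 14.7, 4.05 and 1.79 TPM. Backfat 69 was the highest library for 17 of the 22 HOX genes that passed the filter, against 24.4% of all genes. IRX1, another homeobox gene, was low in backfat 67 alone, at 1.14 TPM against 11.7 to 25.8 TPM elsewhere.

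The window of 300 bases before the RefSeq transcription start was searched on both strands in 19509 protein-coding genes of Sscrofa11.1 for 2 motifs, which do not overlap each other. The heat shock element GAANNTTCNNGAA, made of 3 alternating GAA units, was in 0.39% of the windows and in 2 of 10 heat shock genes. The TATA box letters TATAAA were in 11.9% of the windows, in 2 of 9 fibrillar collagen genes (COL1A2 and COL3A1) and in 0 of 13 lipogenesis genes. A match is a run of letters and not a proven site. The stretches below are on the strand of their gene, 5′ to 3′, with the motif in capitals. HSPA8 and HSP90AB1 are shown as the heat shock genes with the element and COL1A2 as an abundant collagen gene.
HSPA8 (chr9:49986778-49986837, minus strand, motif on the opposite strand from position -55): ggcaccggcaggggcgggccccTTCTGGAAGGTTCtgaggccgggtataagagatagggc
HSP90AB1 (chr7:39237081-39237140, plus strand, motif from position -196): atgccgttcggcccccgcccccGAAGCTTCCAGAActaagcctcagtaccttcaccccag
COL1A2 (chr9:74174424-74174483, plus strand, motif from position -29): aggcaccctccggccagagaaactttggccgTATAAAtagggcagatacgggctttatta

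HSPA8, the constitutive HSC70, was lowest in backfat 69 like most of its list, with 727, 788, 229, 889 and 1415 TPM, and HSP90AB1 was again lowest there, with 186, 196, 85.2, 153 and 127 TPM. Whether the element bears on these levels was not tested.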

How the data were processed

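RNA-seq of backfat was analysed from the table of raw counts that the authors deposited. Per the file headers and the study's methods, reads were screened by FastQC and adapters removed by Trimmomatic. HISAT2 placed the pairs on the Sscrofa11.1 genome, and featureCounts 2.0.1 gave exon counts per gene of Ensembl release 99, without strand and without pairs that mapped to several places. Symbols were found by Ensembl identifier for 15029 of 31907 genes. TPM was computed from counts and exon length, after leaving out the 13 mitochondrial protein-coding genes, which were found by symbol. Mitochondrial genes without a symbol could not be left out. Log2 CPM was computed with edgeR 4.0.16 in R 4.3.3 (TMM, prior count 2, nuclear genes), and dispersions were estimated with an intercept only. Genes with a mean count of at least 10 and a mean TPM of at least 1 entered the spread. Depth was 45157114 to 61772737 counts, so the spread between libraries, not counting error, sets the precision.

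The members and lists were chosen with earlier results of these data known. Genes named were the 30 highest nuclear and the 13 mitochondrial genes, the 25 most and 10 least variable genes with a symbol and a mean TPM of at least 5, the 10 largest loadings on each side of the first component, list members and the markers, and a few of these are not reported here. Lists were matched by symbol. The other libraries and bisulfite data of the series were not used here. The study's methods give another average age than the labels. Alternatives were other scalings (DESeq2 1.42.0), other units, other filters and leaving out each library. The scripts were tested on simulated data. Replicate numbers of the labels could not be matched to boars, and the libraries may share a date or batch that the labels do not give.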

Additional observations from a re-analysis of the deposited data

Results flagged for a closer look

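Each of the 48 library measures and list shares and each of the 122 named nuclear genes that passed the filter was searched for 1 library far from the other 4 (Dixon's gap), which chance gives for about 1 in 20 groups. No explanation was tested.

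Of the library measures and shares 4 were set apart. Backfat 65 had the most counts, 61770000. The lipid droplet coat list was low in backfat 72 at 0.272% of the nuclear TPM, the hepatocyte list was high in backfat 69 at 0.176%, and the inflammation list was high in backfat 72 at 0.0822%. For the lipid droplet coat this holds for the share only. On log2 CPM its median deviation was -0.182 in backfat 71 and -0.157 in backfat 72.

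Of the named genes 19 were set apart on log2 CPM, 14 of them in backfat 69. Over all 13750 genes 5.96% were set apart, with 1.27% higher and 1.64% lower in backfat 69. Some named genes were chosen for a wide spread or for their loading on the first component, of which backfat 69 is an end. The counts of named genes therefore cannot be set against chance or against all genes. The genes of plasma proteins were high in backfat 69, namely AHSG at 65.4 TPM, APOC3 at 47.2, ALB at 27.8, TF at 27.7, HRG at 22.1, SERPINA5 at 15.5, FGG at 11.6 and APOA1 at 1504 TPM. INHA at 16.6 TPM and the homeobox gene HOXB7 at 44.4 TPM were high in backfat 69 too. HSP70.2 at 64.9 TPM and COL6A2 at 1597 TPM were low in it. PDRG1 (38.5 TPM) and ZNF330 (56.98 TPM) were set apart in backfat 69 as higher and lower on TMM-scaled log2 CPM only. By TPM backfat 69 was the extreme library for neither, since PDRG1 reached 43.1 TPM in backfat 65 and ZNF330 was at 56.4 TPM in backfat 72, and both are among the steadiest genes, with SDs of 0.022 and 0.031.

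Backfat 67 was high for PLIN2 at 76.3 TPM, PLIN4 at 613 TPM and HOXB3 at 82.1 TPM, and low for DBP at 24.6 TPM. Backfat 65 was high for SLC4A1 at 20.8 TPM.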

How the results depend on the processing

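With mitochondrial genes kept, 71 genes held 50% of the pool and the fibrillar collagen share was 3.49%. With CPM in place of TPM, 546 genes held 50%, fibrillar collagens took 9.18% and lipogenesis 1.68%, and 24 of 40 list shares moved by more than their SD. The mitochondrial share was 11.02% by counts. Among protein-coding genes only, the fibrillar collagen share was 6.07%. The median SD was 0.32 on log2(TPM + 0.1), 0.33 without the TPM minimum, 0.26 with a mean TPM of at least 10 and 0.38 without a filter. The median biological coefficient of variation was 0.268, 0.214 and 0.391 under the last 3 and 0.231 with DESeq2 dispersions. Genes with 1 library set apart numbered 471 at a mean TPM of at least 10 and 3456 without a filter. Leaving out each library gave 262 to 281 genes for 50%, a mitochondrial share of 26.7% to 30.8%, 0.655% to 0.961% for lipogenesis, 4.56% to 5.25% for fibrillar collagens, a median SD of 0.27 to 0.31, a coefficient of 0.231 to 0.258, and 619 (without backfat 69) to 931 genes set apart. The SD of named genes moved in 54 such fits and not in 548. Against TMM, TPM scaling shifted the median gene by 0.17 in backfat 65 and -0.12 in backfat 72 (log2), and 25 of 205 list deviations moved, while none of 205 did with DESeq2 size factors. A share of mitochondrial protein-coding genes only was not run, since it equals the value given. No paired analysis was possible because there is a single group. Values below the level of 3 counts cannot be told from 0.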

Other observations

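INSL3, a hormone gene of Leydig cells, had 4.29, 0.61, 33.5, 0.085 and 6.92 TPM in backfat 65, 67, 69, 71 and 72. CYP17A1, a steroid hydroxylase, had 2.79, 0.11, 7.92, 0.12 and 2.48 TPM, and INHA, an inhibin subunit, had 0.38, 0.25, 16.6, 0.21 and 0.28 TPM. All 3 were highest in backfat 69, and CYP17A1 and INHA were chosen after their values were seen.

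Backfat 69 was highest for 5 of 7 Schwann cell genes, for all 9 genes of MHC and antigen presentation and for 34 of 45 ribosomal protein genes, against 24.4% of all genes.

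Clock genes did not share a single order. PER1, a repressor of the clock, had 226, 320, 72, 295 and 207 TPM and was lowest in backfat 69. DBP, an output gene of the clock, had 71.2, 24.6, 68.2, 51.9 and 48.2 TPM and was lowest in backfat 67, and BHLHE40 had 23, 31.2, 41.9, 43.7 and 87.9 TPM and was highest in backfat 72.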
